A study of Homo sapiens with 4 samples.

Results

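TNFRSF12A, 8 further receptors of the tumour necrosis factor (TNF) receptor superfamily and the ligand TNFSF10 were examined in cells labelled AGS, a line established from a human gastric adenocarcinoma, in a group labelled FGF2 and a group labelled NC. The members were taken by gene symbol, which gave 10 of the 51103 genes listed, 9 receptors and 1 ligand. The FGF2 group held 2 libraries from cells given recombinant human fibroblast growth factor 2 at 20 ng/mL and harvested after 24 h. The NC group held 2 libraries, and what NC stands for is not spelled out. For NC, too, the treatment text speaks of FGF2 being added, so the grouping rests on titles and the treatment field. Both groups were grown in serum-containing medium, and no other genotype or agent is named.

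TNF receptors are membrane proteins that bind trimeric ligands through cysteine-rich repeats. Some carry a death domain inside the cell, through which FADD or TRADD is recruited and caspase-8 or NF-kB can be activated. Others lack it and recruit TRAF adaptors, which lead to NF-kB and stress kinases, and a few are decoys that bind ligand without a full signalling tail. TNFRSF12A, also called Fn14, was named for its induction by fibroblast growth factors and binds the ligand TWEAK, which TNFSF12 encodes.

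Total counts ran from 13790335 to 14073340 in the libraries numbered 1 and from 27325697 to 27598608 in those numbered 2. In each group library 1 exceeded library 2 at only 2 genes, where independent libraries of such depths would be expected to do so at 1192 (FGF2) and 1214 (NC) genes. For the 10 members it did so at 0 genes in either group. The counts are those of a library 2 into which library 1 was merged, and each group was counted as 1 sample (n = 1). No p-value is given, and the comparison is between 2 samples. DUSP6 and SPRY4, feedback inhibitors that FGF signalling induces, were 11.4-fold and 10.0-fold higher in the FGF2 sample. An opposite-strand gene shares 40.5% of the exon sequence of DUSP6, while no other gene overlaps the exons of SPRY4. Of the 6 epithelial markers, KRT8 stood between 191 and 270 FPKM (read counts divided by exon length and by the library's total). KRT18 stood at 193 to 201 FPKM and KRT19 at 25.4 to 48.5 FPKM. EPCAM stood at only 0.518 to 1.19 FPKM, CLDN4 at 0.386 to 0.654 FPKM and CDH1 at 0.0235 to 0.196 FPKM. The identity of the line was not checked further. Of the 8 fibroblast markers, COL1A1 stood at 59.4 to 104 FPKM and THY1 at 18.0 to 18.9 FPKM, while COL1A2 and FAP were at 0 counts in all libraries. The summed fibroblast list stood at 77.5 to 78.3 FPKM in FGF2 and 120 to 124 FPKM in NC, and its part in the differences given next was not tested. The 6 blood and immune markers summed to between 0.41 and 1.10 FPKM, nearly all of it CD14 (0.38 to 1.05 FPKM). CD3E and LYZ had 0 counts, as did CD68, 81.7% of whose exon sequence is shared with a gene on the same strand.

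The FGF2 sample had higher levels of the TRAIL receptor genes TNFRSF10D (2.16-fold) and TNFRSF10A (1.93-fold) and of TNFRSF25 (1.81-fold). TNFRSF21 was 1.65-fold higher but fell just short of the bound. TNFRSF12A, TNFRSF1A and LTBR, all abundant, differed by at most 1.13-fold, and CD40 stood between these and the higher genes at 1.36-fold. TNFRSF11B and the TRAIL gene TNFSF10 were near 0 in both samples. In bulk RNA, more cells expressing a gene and more RNA per cell cannot be told apart.

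Folds compare both libraries 2 after TMM scaling (trimmed mean of M values), with 0.5 added to each count. A gene was called when the smaller of the FGF2 read sets exceeded the larger of the NC read sets by at least 1.5-fold, or the reverse. The read sets of a group were library 1 and the reads of library 2 not in library 1. Of the 8 members above the count filter, 3 were higher and 0 lower, against 3.61% higher and 7.40% lower of the 14043 genes tested. At a 1.2-fold bound 4 members were higher and 0 lower, against 11.7% and 16.0% of all genes. At a 2-fold bound 0 were higher and 0 lower, against 1.57% and 2.98%. All 8 log2 fold changes were above 0, with a median of 0.58, beside -0.0028 for all genes tested. The members were listed with earlier results of these data known, so these counts are a description.

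**Figure D1:**
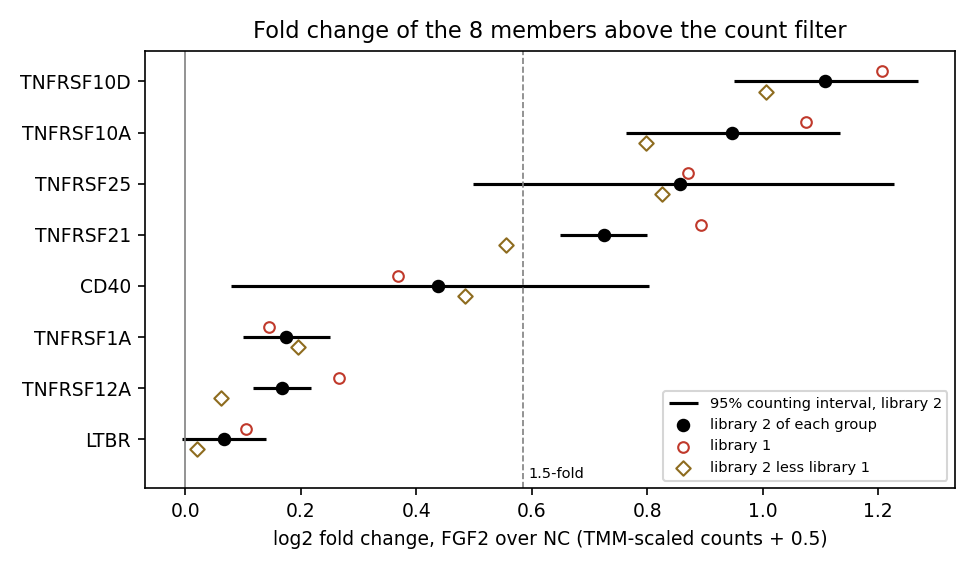
Log2 fold changes (FGF2 over NC) of the 8 members above the count filter, from both libraries 2 with their 95% counting interval (black), from library 1 alone (open circles) and from library 2 less library 1 (diamonds). TNFRSF10D, TNFRSF10A and TNFRSF25 lay past 1.5-fold (dashed line) in every read set, and TNFRSF21 lay at 1.86-fold and 1.47-fold.

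Promoter windows, 250 bases before the start annotated by RefSeq (GRCh38.p14), were available for 5 of the 10 members. They were searched on both strands for 6 motifs: AP-1 (TGANTCA), CRE (TGACGTCA), NF-kB (GGAATTTCC), E-box (CACGTG), ETS (CCGGAAGT) and GC box (GGGCGG, which reads CCGCCC on the other strand). RefSeq starts can lie inside the GENCODE gene intervals given for the members, as for LTBR, and 129 bases of the LTBR window, 77 of the TNFSF10 window and all 250 of the TNFRSF25 window lie in exons of some GENCODE gene. Sequence is therefore printed for TNFRSF21, with a fold of 1.65, and for TNFRSF1A, with a fold of 1.13, in the latter without the 38 bases that lie in an exon. Capitals mark motif matches.
TNFRSF21 (chr6:47309906-47310155, minus strand): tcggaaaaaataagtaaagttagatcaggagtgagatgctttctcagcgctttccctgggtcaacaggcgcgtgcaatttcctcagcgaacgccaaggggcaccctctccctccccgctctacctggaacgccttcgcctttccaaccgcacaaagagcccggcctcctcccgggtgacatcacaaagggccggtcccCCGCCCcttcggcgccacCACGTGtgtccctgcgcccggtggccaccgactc
TNFRSF1A (chr12:6342115-6342326, minus strand): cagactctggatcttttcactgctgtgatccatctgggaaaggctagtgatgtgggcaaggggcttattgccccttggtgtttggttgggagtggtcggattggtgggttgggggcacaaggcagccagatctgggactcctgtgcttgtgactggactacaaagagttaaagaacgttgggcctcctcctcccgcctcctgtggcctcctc
The 5 windows held only E-box and GC box matches. TNFRSF21 had 1 E-box beginning 34 bases before the start and 1 GC box, TNFRSF25 had 3 GC boxes, LTBR had 1 E-box and 4 GC boxes, and TNFRSF1A and TNFSF10 had none of the 6 motifs. Of 35116 such windows, 6.34% held the E-box and 42.6% the GC box, while 6.57% held AP-1, 1.65% CRE, 0.41% the NF-kB string and 3.42% the ETS string. GC boxes were found in TNFRSF25, which was called higher, and in LTBR, which was not called. A match is a match of letters and not a bound site.

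TNFRSF12A (ENSG00000006327, GRCh38 chromosome 16, 3018445 to 3022383) was the most abundant member in every library. Its level was 128 and 127 FPKM in FGF2 libraries 1 and 2 and 113 and 119 FPKM in NC libraries 1 and 2. The reads of library 2 not in library 1 gave 125 FPKM for FGF2 and 126 FPKM for NC. The deposited scale therefore put the groups in overlap once reads were separated. The fold between libraries 2 was 1.12 (95% exact Clopper-Pearson interval 1.08 to 1.16, a log2 fold change of 0.17), while library 1 alone gave 1.203 and the other reads 1.04. Both of these lie outside the interval, which covers counting error only and is that of libraries 2. Each read set has fewer counts, and whether the read sets differed by more than counting error was not tested. The gene named for FGF induction was thus within the 1.2-fold bound in these samples at 24 h. It reached the 98.4th percentile of protein-coding genes with counts in both samples.

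By summed FPKM over the 29 receptor genes listed, TNFRSF12A made up 48.4% and 47.9% in the FGF2 libraries and 52.5% and 52.8% in the NC libraries. The summed receptor level was 265 FPKM in both FGF2 libraries and 215 and 226 FPKM in NC. The share of TNFRSF12A was therefore lower in the FGF2 libraries although its own level was not. Its ligand gene TNFSF12 had at most 5 counts in any library (3 and 5 in FGF2, 0 and 2 in NC), and 29.4% of its exon sequence is shared with a readthrough gene. The 3 protein-coding genes nearest to TNFRSF12A over the 4 libraries, by Euclidean distance of log2(FPKM + 1), were KHSRP (0.064), MSN (0.072) and PRPF19 (0.078). KHSRP, which encodes an RNA-binding protein, stood at 129 FPKM in both FGF2 libraries and at 117 and 120 FPKM in NC.

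**Figure D2:**
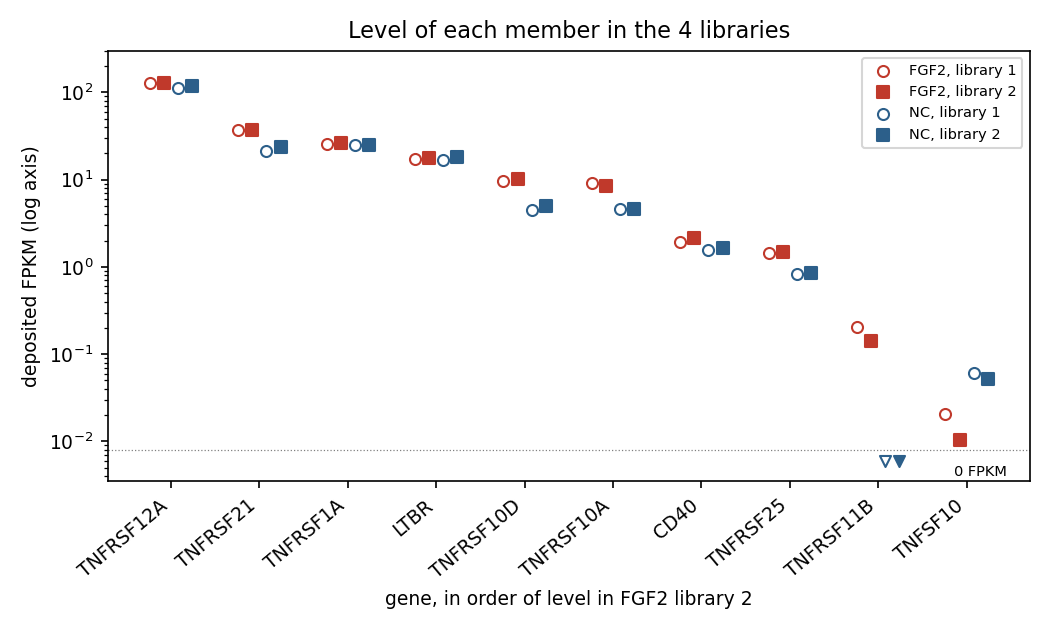
Deposited FPKM of the 10 members (log axis) in each of the 4 libraries, ordered by FGF2 library 2, with red for FGF2, blue for NC, open circles for library 1 and squares for library 2. Triangles under the dotted line are values of 0. TNFRSF12A stood above 112 FPKM in all libraries, and the FGF2 and NC points part for TNFRSF21, TNFRSF10D, TNFRSF10A and TNFRSF25.

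Among the members with a death domain, TNFRSF10A and TNFRSF25 were higher, TNFRSF21 was short of the bound and TNFRSF1A differed little. TNFRSF10A (ENSG00000104689, chromosome 8, 23190452 to 23225126) encodes DR4, which triggers apoptosis when TRAIL binds. It stood at 9.21 and 8.46 FPKM in the FGF2 libraries and at 4.62 and 4.64 FPKM in the NC libraries. The fold was 1.93 (1.70 to 2.19), while library 1 alone gave 2.11 and the other reads 1.74. Of the 50-base stretches of TNFRSF10A, 12.4% occur in transcripts of other genes. Genes on the opposite strand cover 16.6% of its exon sequence, and the library kit does not mark strand. Those genes had low counts in library 2: TNFRSF10A-AS1 had 20 in FGF2 and 9 in NC, and AC100861.1 had 51 and 52, beside 689 and 374 for TNFRSF10A. How reads shared by such genes were counted was not stated with the data used here.

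TNFRSF25 (ENSG00000215788, chromosome 1, 6460786 to 6466195) encodes DR3, the receptor for TL1A. Its level was low, at 1.44 and 1.48 FPKM in FGF2 and 0.83 and 0.86 FPKM in NC. It had 175 counts in FGF2 library 2 and 101 in NC library 2. The fold was 1.81 with a wide interval of 1.41 to 2.34, and the read sets gave 1.83 and 1.77. The opposite-strand gene ESPN shares 8.9% of its exon sequence and had 4 counts in FGF2 library 2 and 15 in NC library 2. The same-strand gene PLEKHG5 shares 2.4% and had more counts than TNFRSF25, at 357 in FGF2 library 2 and 325 in NC library 2. Of the 50-base stretches of TNFRSF25, 8.1% occur in transcripts of other genes.

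TNFRSF21 (ENSG00000146072, chromosome 6, 47231532 to 47309905) encodes DR6, a death receptor best known from neurons and lymphocytes. It was the second most abundant member in FGF2, at 37.4 and 37.0 FPKM, against 21.3 and 23.7 FPKM in NC. The libraries of a group share reads, so their likeness is not replication. The fold was 1.65 (1.57 to 1.74), but 1.86 from library 1 and 1.47 from the other reads, both outside that interval of libraries 2. The NC reads account for most of that gap, since NC library 1 gave 21.3 FPKM and the other NC reads 26.2 FPKM, while the FGF2 read sets gave 37.4 and 36.6 FPKM. The smaller FGF2 read set was 1.47-fold above the larger NC read set, past 1.2-fold and short of 1.5-fold. No other gene overlaps its exons.

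TNFRSF1A (ENSG00000067182, chromosome 12, 6328757 to 6342114), the main receptor for TNF, stood at 25.8 and 26.5 FPKM in FGF2 and 24.7 and 24.9 FPKM in NC. All 4 values lay within a narrow range, with the FGF2 libraries slightly above. The fold was 1.13 (1.07 to 1.19), and neither bound was met. Over the 8 listed receptors with a death domain, 6 passed the count filter. At 1.5-fold 2 were higher and 0 lower, against 3.61% and 7.40% of all genes tested. At 1.2-fold 4 were higher and 0 lower, against 11.7% and 16.0%. The fourth of these was TNFRSF10B, described with the TRAIL receptors. Members among these receptors were listed with earlier results of these data known, so the counts are a description.

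TRAIL, the product of TNFSF10, binds the death receptors encoded by TNFRSF10A and TNFRSF10B and the decoys encoded by TNFRSF10C and TNFRSF10D. TNFRSF10D (ENSG00000173530, chromosome 8, 23135588 to 23164030), whose product has a truncated death domain, stood at 9.78 and 10.2 FPKM in FGF2 and 4.48 and 4.99 FPKM in NC. The fold between libraries 2 was 2.16 (1.93 to 2.41). The read sets gave 2.31 and 2.01, and the smaller FGF2 set was 1.88-fold above the larger NC set, so it missed the 2-fold bound. Of its 50-base stretches, 0.8% occur in a transcript of another gene.

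TNFRSF10B, which encodes DR5 and is not one of the 10, stood at 23.6 and 24.0 FPKM in FGF2 and 17.3 and 17.0 FPKM in NC, a fold of 1.49 (1.41 to 1.57). TNFRSF10C had 0 counts in all 4 libraries, and 39.3% of its exon sequence is shared with genes on the same strand. The summed TRAIL receptor level was 42.6 FPKM in both FGF2 libraries and 26.4 and 26.7 FPKM in NC. The decoy share of that sum, all of it TNFRSF10D, was 23.0% and 23.9% in FGF2 and 17.0% and 18.7% in NC. The 3 detected TRAIL receptor genes thus all had higher values in the FGF2 libraries. The intervals of the TNFRSF10D and TNFRSF10A folds overlapped, and the ratio of TNFRSF10D to TNFRSF10A overlapped between groups, at 1.06 and 1.202 in FGF2 and 0.969 and 1.07 in NC. TNFSF10 itself (ENSG00000121858, chromosome 3) had 1 count in each FGF2 library and 3 and 5 counts in the NC libraries. The ratio in libraries 2 was 0.21, with a counting interval of 0.0044 to 1.87 that spans equal levels, so no direction was detectable.

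TNFRSF11B (ENSG00000164761, chromosome 8, 118923557 to 118952200) encodes osteoprotegerin, a secreted decoy for RANKL and TRAIL. Its counts were 8 and 11 in FGF2 (0.21 and 0.14 FPKM) and 0 in both NC libraries. With a floor of 3 counts put in place of the 0 in NC library 2, it was 3.84-fold higher in FGF2 library 2. That value leaves out the counting error of the 11 counts and is not a lower limit. The exact counting interval of the ratio begins at 2.63-fold. Of its 11 counts 8 were already in library 1, so the other reads gave only 3. Neither TNFRSF11B nor TNFSF10 passed the count filter, and neither is in the counts of called members.

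The members that signal through TRAF adaptors and lack a death domain were not called. LTBR (ENSG00000111321, chromosome 12, 6375045 to 6391571), the lymphotoxin beta receptor gene, stood at 17.0 and 17.9 FPKM in FGF2 and 16.8 and 18.0 FPKM in NC. Of the 50-base stretches of LTBR, 8.7% occur in transcripts of other genes, and the opposite-strand gene SCNN1A shares 6.7% of its exon sequence. The LTBR values of the groups interleaved. Its fold of 1.05 (0.996 to 1.10) had the lowest size of the 8, and its log2 value moved from 0.07 to -0.01 when libraries were scaled by total count alone. CD40 (ENSG00000101017, chromosome 20, 46118272 to 46129863), a costimulatory receptor known from B cells and also found on epithelial tumours, stood at 1.92 and 2.14 FPKM in FGF2 and 1.57 and 1.67 FPKM in NC. The FGF2 values were slightly above the NC values, and the fold was 1.36 with an interval of 1.06 to 1.75. The smaller FGF2 read set was 1.16-fold above the larger NC set, so CD40 met neither the 1.5-fold nor the 1.2-fold bound.

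The order of levels per length was nearly the same in both samples. In FGF2 library 2 it ran from TNFRSF12A through TNFRSF21, TNFRSF1A, LTBR, TNFRSF10D, TNFRSF10A, CD40, TNFRSF25 and TNFRSF11B to TNFSF10, and no neighbours had overlapping counting intervals or read sets. In NC library 2 TNFRSF1A (24.9 FPKM, 23.9 to 25.8) and TNFRSF21 (23.7 FPKM, 22.7 to 24.7) overlapped. TNFRSF10D (4.99 FPKM) and TNFRSF10A (4.64 FPKM) overlapped as well, as did TNFSF10 and TNFRSF11B at the bottom. The members thus ranged from the 98.4th percentile of protein-coding genes with counts to genes with almost no reads. Against NC, the TNFRSF10D level passed from the 54.4th to the 70.6th percentile and that of TNFRSF10A from the 52.9th to the 66.6th.

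The rest of the superfamily was mostly at low levels. Of the 20 other receptor genes 10 passed the count filter, with a median log2 fold change of -0.53 and 3 values above 0. At 1.5-fold 0 were higher and 2 lower, against 3.61% and 7.40% of all genes tested. At 1.2-fold 2 were higher and 6 lower, against 11.7% and 16.0%. TNFRSF19, which encodes the receptor TROY, stood at 0.44 and 0.59 FPKM in FGF2 and 1.43 and 1.65 FPKM in NC, a log2 fold change of -1.41 (-1.79 to -1.04). TNFRSF14, the herpesvirus entry mediator gene, was the other lower one at -1.99 (-2.78 to -1.32), from 21 counts against 89. RELT stood at 7.07 and 6.75 FPKM in FGF2 and 4.77 and 4.72 FPKM in NC, a fold of 1.51 (1.38 to 1.66), but its read sets gave 1.57 and 1.45 and it was not called. Opposite-strand genes share 13.4% of the exon sequence of TNFRSF14 and 11.9% of that of RELT.

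Of the 17 other ligand genes, 3 passed the count filter, with 0 higher and 1 lower. CD70, the ligand of CD27, was the lower one at 12.4 and 12.5 FPKM in FGF2 and 22.7 and 23.3 FPKM in NC, a log2 fold change of -0.82 (-0.98 to -0.67). TNFSF9, the 4-1BB ligand gene, stood at 4.36 and 3.50 FPKM against 7.98 and 6.95 FPKM and was short of 1.5-fold. TNF itself had 0 counts in the FGF2 libraries and 1 and 2 in NC, and CD40LG and FASLG had 0 in all. TNFSF12, TNF, TNFSF10 and CD40LG, whose products bind TNFRSF12A, TNFRSF1A, the TRAIL receptors and CD40, were therefore each at 5 counts or fewer in every library. Of the 47 receptor and ligand genes listed, including the members, 7 reached 10 FPKM in either library 2. Over these 47 genes 21 passed the count filter, with 3 higher and 3 lower, against 3.61% and 7.40% of all genes tested.

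**Figure D3:**
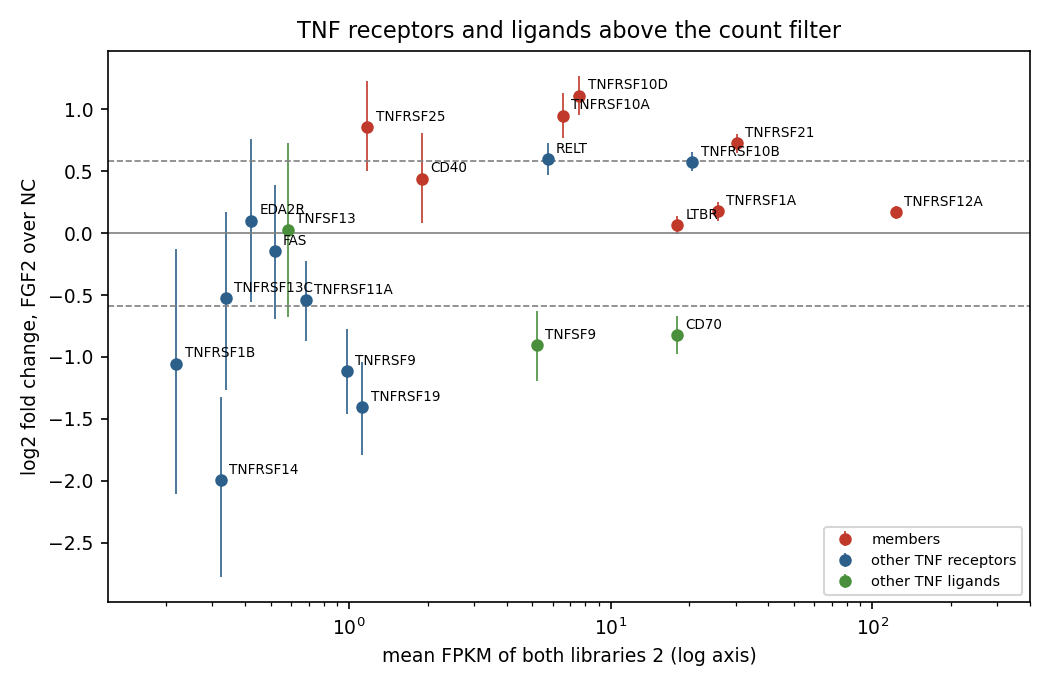
Log2 fold change (FGF2 over NC, with 95% counting interval) against mean FPKM of both libraries 2 (log axis) for the 21 receptor and ligand genes above the count filter, with members in red, other receptors in blue and other ligands in green. Dashed lines mark 1.5-fold. All 8 members lie above 0, while 7 of 10 other receptors and 2 of 3 other ligands lie below it. Members were listed with earlier results of these data known, so this contrast is a description only.

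Downstream of the receptors, few genes met the 1.5-fold bound, as was so for all genes tested (3.61% higher and 7.40% lower). At 1.2-fold the shares of all genes were 11.7% and 16.0%, and these shares stand beside each list that follows. None of the 22 receptor-proximal adaptors, kinases and ubiquitin ligases was called (median -0.07), and at 1.2-fold 2 were higher and 1 lower. The higher ones were BIRC2, which encodes the ubiquitin ligase cIAP1, at 0.53 (0.43 to 0.62), and the caspase inhibitor gene XIAP at 0.32 (0.22 to 0.43). MAP3K14, the kinase gene of noncanonical NF-kB signalling, was lower at -0.53 (-0.62 to -0.43), and 12.3% of its exon sequence is shared with an opposite-strand gene. The TRAF2 and TRAF3 adaptor genes stood at -0.06 and -0.08.

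None of the 17 death receptor and apoptosis genes was called (median 0.05), with 3 higher and 2 lower at 1.2-fold. MCL1, an antiapoptotic BCL2 relative, stood at 127 and 126 FPKM in FGF2 and 88.0 and 87.0 FPKM in NC, a log2 fold change of 0.61 (0.58 to 0.65). BCL2 at 0.60 and CYCS, which encodes cytochrome c, at 0.38 were also past 1.2-fold. CASP9 at -0.57 and DIABLO at -0.64 were the lower ones, and DIABLO is listed in 2 rows, of which the one with more counts was used. That row had 47 counts in FGF2 library 2 and 77 in NC library 2, with an interval of -1.20 to -0.10. Same-strand genes, the other DIABLO row among them, share 29.6% of its exon sequence, and an opposite-strand gene shares 14.3%. The initiator caspase gene CASP8 and its inhibitor CFLAR stood at 0.14 (-0.05 to 0.32) and 0.03 (-0.14 to 0.20), and neither passed 1.2-fold.

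NF-kB genes went both ways. Of 12 subunits, inhibitors and kinases none was called (median 0.02), with 1 higher and 2 lower at 1.2-fold. TNFAIP3, which encodes the inhibitor A20, was higher at 0.86 (0.63 to 1.10), and the lower ones were NFKBIA at -0.77 (-0.89 to -0.66) and NFKB2 at -0.45 (-0.54 to -0.36). Both inhibitors are themselves NF-kB targets, and they stood on opposite sides. Of 15 NF-kB target genes 12 passed the count filter, with 1 higher, 2 lower and a median of -0.09. IER3, an early response gene, was higher at 51.8 and 55.0 FPKM against 23.9 and 26.6 FPKM, with 26.5% of its exon sequence shared with an opposite-strand gene. CCL2 (4.02 and 4.21 against 15.5 and 16.4 FPKM) and CSF1 (7.24 and 7.45 against 13.2 and 13.6 FPKM) were the lower ones. For comparison, 9 of the 10 FGF and ERK early target genes were higher and 0 lower at 1.5-fold, with a median of 2.26. Of all genes tested, 3.61% were higher and 7.40% lower at that bound. The remaining target, EGR1, stood at -0.73 (-0.84 to -0.61) and was lower at 1.2-fold.

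**Figure D4:**
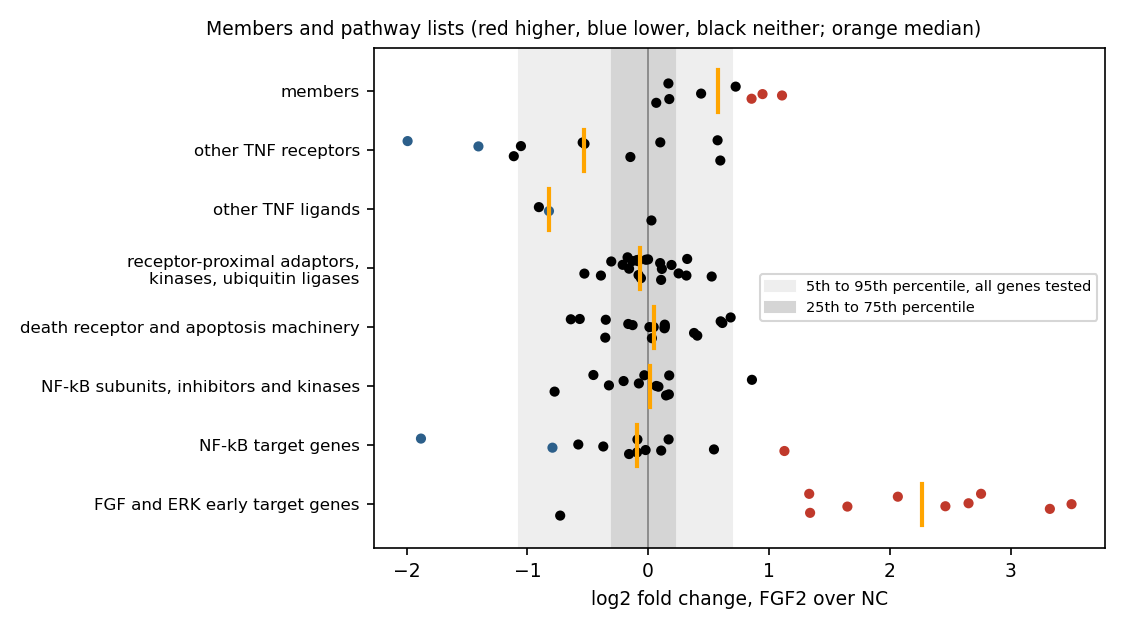
Log2 fold changes (FGF2 over NC) of genes above the count filter in the members and 7 lists, with genes called higher in red, lower in blue and neither in black, list medians in orange, and the spread of all 14043 genes tested in grey. The members' median of 0.58 lies above that of the 6 other TNF and NF-kB lists, which run from -0.82 to 0.05, and below that of the FGF and ERK targets. Members and lists were chosen with earlier results of these data known, so this order is a description only.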

How the data were processed

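Polyadenylated RNA was sequenced from AGS cells, with unstranded NEBNext Ultra libraries per the labels' protocols. For each library the authors deposited raw read counts per gene and FPKM values. Per the submitters' processing notes the tools were HISAT2 and HTSeq 0.13.5 and the build GRCh38; an annotation release was not stated there. The gene length implied by both columns equalled the merged exon length in GENCODE v29 for all 10 members, so coordinates are from that release.

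Because library 2 of each group appears to hold the reads of library 1, the edgeR quasi-likelihood test planned for separate libraries was not used. Counts were filtered with filterByExpr and scaled by TMM (edgeR 4.0.16, R 4.3.3), leaving 14043 genes. Intervals are 95% exact Clopper-Pearson intervals (exact Poisson for levels) and cover counting error only. Alternatives were total count and DESeq2 1.42.0 size factors, other bounds and filters, single libraries and log2(FPKM + 1). Named list genes were to be those called, up to 4 per list, at a mean of at least 1 FPKM. TNFRSF14, TNFRSF10B, RELT, TNFSF9 and the list genes called only at 1.2-fold or not at all were named after their values were seen. Members, lists and rules were chosen with earlier results of these data known. A marker fixed for the blood and immune list is not reported here.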

Additional observations from a re-analysis of the deposited data

How the results depend on the processing

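The 9 alternatives to each member's log2 fold change kept its sign, except for LTBR, which had the other sign in 2 of 9 (lowest -0.01). A pair of these alternatives, leaving out a library 1, equals the reported value by construction. TNFRSF12A ranged from 0.06 to 0.27, TNFRSF21 from 0.56 to 0.89, TNFRSF10A from 0.75 to 1.08, TNFRSF10D from 0.90 to 1.25 and TNFRSF25 from 0.41 to 0.90, the last at its lowest on the log2(FPKM + 1) scale, which understates changes of low genes. The 3 members called higher became 0 at a 2-fold bound, and the 0 called lower became 1 with no low-count filter (TNFSF10, at 1 count against 5). With 1 library left out, or the same-numbered library of both groups, 3 to 4 members were higher and 0 lower, the fourth being TNFRSF21. Total count scaling shifted all log2 values by -0.08 and left 3 members higher. Over all genes the 507 higher and 1039 lower became 1644 and 2246 at 1.2-fold, 220 and 418 at 2-fold, 1154 and 2034 with no filter, and 337 and 590 at a mean of at least 50 counts. Leaving out libraries in these ways gave 670 to 1235 higher and 1325 to 2101 lower, since fewer read sets had to pass, and a single library left out at most 799 and 1542. No paired analysis was possible because the libraries of a group share reads, so each group is 1 sample and no test was made.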
